A study of Mus musculus with 3 samples.

Results

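Among 4007 cells of the P1 library with more than 700 detected genes, the 1506 cells in which mitochondrially encoded (mt-) genes held 10% or more of the unique molecular identifiers (UMIs) were set against the 1283 cells in which they held under 6%. The former are called high-mt cells and the latter low-mt cells. They made up 37.6% (exact binomial 95% interval 36.1 to 39.1) and 32.0% of the 4007 cells, and the other 1218 cells lay between both limits. A further 433 of the 4440 P1 barcodes had 700 genes or fewer, and the 3 matrices of the series held 12324 cells. All intervals given for counts, ratios and shares cover counting error only.

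The study profiled developing somatostatin-expressing (SST+) neurons of the mouse neocortex at 1 embryonic (E16.5) and 2 postnatal stages (P1, P5) by droplet single-cell RNA sequencing, with 1 library per stage. All 3 libraries came from SstCre/+;RCE mice, in which Cre made from the Sst locus switches on an EGFP reporter in the ROSA locus, so that every cell that once expressed Sst stays labelled. Neocortices were pooled (6 animals for the embryonic library and 3 for each postnatal one) and dissociated with pronase, and live GFP+ DAPI- cells were sorted. The postnatal preparations also passed through percoll, and the P5 preparation through trypsin and DNAse, so stage and preparation cannot be told apart. The study itself kept cells with over 700 genes and an mt- share under 10%, so the high-mt cells are cells that its own quality control left out. As both sides come from 1 library, cells are not replicates and no test between the sides was possible. Every P1 difference below is a description of that library, and since the sides were defined by their UMIs, the E16.5 and P5 libraries, which played no part in the choice, were put through the same limits.

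Mitochondrial transcripts are made and translated inside the organelle and code for subunits of the respiratory chain, whereas the other subunits come from nuclear genes. Messenger RNAs for secreted and membrane proteins are translated at the endoplasmic reticulum (ER), while those for ribosomal and cytoskeletal proteins are mostly translated on free ribosomes in the cytosol. Some long non-coding RNAs, with Malat1 as the best known, stay in the nucleus. A high mt- share is widely used in single-cell work as a sign of a damaged or stressed cell, and SST+ neurons of the cortex comprise Martinotti cells, non-Martinotti interneurons and long-range projecting (LRP) neurons.

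High-mt cells held more mitochondrial UMIs and fewer other UMIs than low-mt cells. The median cell had 384.5 mt- UMIs on the high side and 116 on the low side, a 3.31-fold difference, beside medians of 2224.5 (95% interval of the median over cells 2144 to 2291) and 2878 (2726 to 3004) UMIs outside mt-. The ratio of the latter medians was 0.773. The opposite ends of their intervals give 0.714 to 0.840, which is not a 95% interval of the ratio. The median mt- share was 14.4% against 4.35%, with a highest value of 38.6%, and the cells between the limits were the deepest, with a median of 3474 UMIs outside mt-. Median genes per cell were 1474 and 1767. After each cell was thinned to 1000 UMIs outside mt-, which left out 45 high-mt and 79 low-mt cells, the medians were 770 and 766 genes, a difference of 4. The opposite ends of the intervals of these medians give 2 to 8, which is not a 95% interval either. The number of different genes seen per UMI was thus nearly the same on both sides.

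The make-up of the mt- UMIs was also similar. Each of the 13 mt- genes was higher in high-mt cells, by 1.72 to 1.95 on the log2 scale of CPM, that is, UMIs per 1000000 UMIs outside mt-. As the share of these genes chose the cells, a rise of their sum was set by the limits and is no result. Only their shares within the mt- UMIs were left free. mt-Atp6, an ATP synthase subunit, held 25.4% of mt- UMIs in high-mt and 24.0% in low-mt cells, and mt-Co2, a cytochrome c oxidase subunit, held 13.9% and 14.0%. mt-Cytb, of complex III, held 7.49% and 8.22%.

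In E16.5 and P5 cells the same limits picked far fewer high-mt cells, and there the difference lay mainly in the other UMIs. At E16.5, 323 of 4275 cells (7.56%) were high-mt and 3445 were low-mt, and at P5 the numbers were 211 of 3191 (6.61%) and 2462. The median mt- share of all cells was 7.73% in the P1 library, against 4.24% at E16.5 and 4.35% at P5. The P1 library was also counted with another version of Cell Ranger (3.0.2, against 3.1.0). Stage, preparation and version cannot be told apart in these shares. Median UMIs outside mt- were 1932 on the high side and 5502 on the low side at E16.5 (ratio 0.351), and 1441 and 4140 at P5 (ratio 0.348). Median mt- UMIs per cell were 299 and 209 at E16.5 (ratio 1.43), and 204 and 164 at P5 (ratio 1.24). At P1 the mt- UMIs thus differed by more, and the other UMIs by less, than in either of the other libraries.

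Transcripts of cytosolic ribosomal proteins took a median of 2.08% (quartiles 1.58 and 2.87) of a high-mt cell's UMIs outside mt-, and 6.07% (3.08 and 7.89) in a low-mt cell. The cells between the limits had a median of 6.05%. Values under 4%, a limit chosen after the distribution had been seen, were found in 1356 of 1506 high-mt cells, in 415 of 1218 cells between the limits (34.1%) and in 383 of 1283 low-mt cells (29.9%). Within 0.5 percentage points of that limit lay 119, 95 and 65 cells, respectively. At E16.5, 294 of 323 high-mt and 293 of 3445 low-mt cells (8.51%) were under it, and at P5, 155 of 211 (73.5%) and 131 of 2462 (5.32%).

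**Figure D1:**
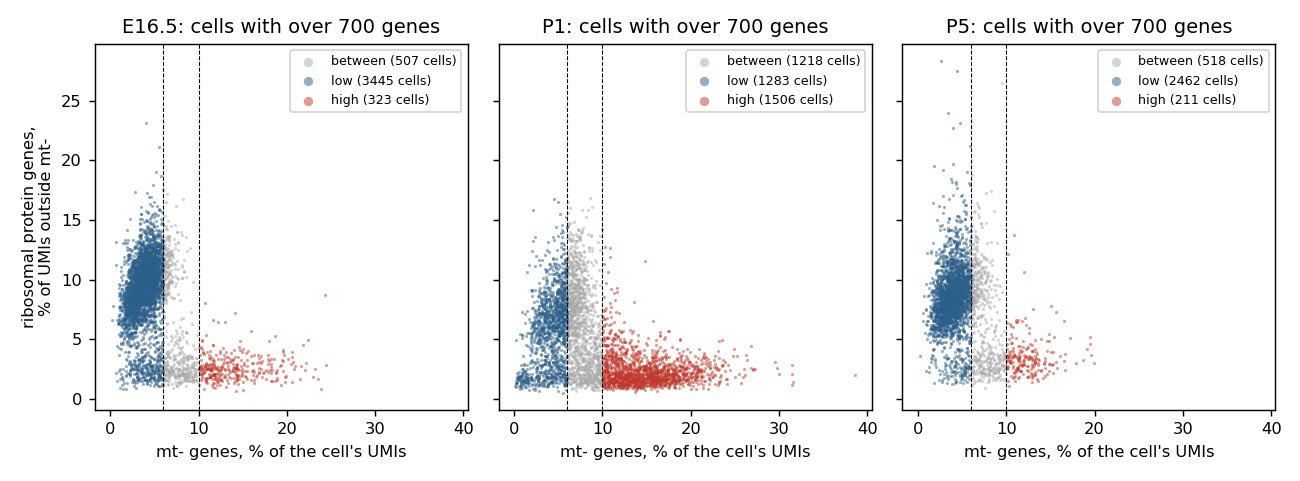
Each point is a cell with over 700 genes, placed by its mt- share of UMIs (%, x axis) and by the share of ribosomal protein transcripts among its UMIs outside mt- (%, y axis), in 1 panel per library. At P1 most high-mt cells (1356 of 1506) lie under a ribosomal share of 4%, together with 383 of 1283 low-mt cells, while at E16.5 and P5 the high-mt cells are few.

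The low-mt cells under that limit were shallow. At P1 their median was 1291 UMIs outside mt-, against 3611 for the low-mt cells over it. They had a median of 0.681% of UMIs in ER protein folding genes and 2.39% in neuronal membrane glycoprotein genes, against 0.411% and 1.23% in the low-mt cells over the limit. In high-mt cells under the limit the medians were 0.952% and 3.18%, and in the high-mt cells over it 0.530% and 1.78%. Cells with few ribosomal transcripts thus held more of both other groups on either side of the mt- contrast.

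Across the transcriptome, 7124 genes outside mt- had at least 200 UMIs over both sides, out of sums of 3715298 UMIs in high-mt and 4570934 in low-mt cells. With ratios on the log2(CPM + 1) scale, 1613 of them (22.6%) were at least 1.5-fold higher and 1657 (23.3%) at least 1.5-fold lower in high-mt cells, around a median of -0.02. These percentages are the background for the counts of list members that follow. Members under 200 UMIs are counted as not entered, and a gene enters more easily through the side where it is high, so these counts describe the members that entered only.

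The 10 genes with the highest ratio among those with at least 1000 UMIs were mostly genes of secreted and membrane proteins. Sparcl1, a secreted matricellular glycoprotein, had 261 CPM in high-mt and 49.2 CPM in low-mt cells (log2 ratio 2.38, 95% interval 2.19 to 2.62). Reln, which codes for the secreted glycoprotein reelin (chromosome 5, 21884454 to 22344702, GRCm38), had 1139 and 232 CPM (2.29, 2.20 to 2.40). Adcy1, a membrane-bound adenylyl cyclase (chromosome 11, 7063489 to 7178506), had 1292 and 285 CPM (2.18, 2.09 to 2.27). The lysosomal protease gene Ctsd (2.14), Lgi2 and Edil3 of secreted proteins (2.12 and 2.11), Plppr1 (2.06) and the PACAP receptor gene Adcyap1r1 (2.05) followed. Nme7 stood at 2.38 but overlaps the sodium pump subunit gene Atp1b1 (1.51) by 617 bases on the other strand. The strand setting of the counting is not given in the sources used here, so its value is uncertain.

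Those of the 10 genes that are named here were also higher in high-mt cells of the other libraries. Sparcl1 had log2 ratios of 2.89 at E16.5 and 1.96 at P5. Reln had 410 and 140 CPM at E16.5 (1.54) and 1217 and 415 CPM at P5 (1.55). Adcy1 stood at 1.77 and 1.06, and Ctsd at 1.83 and 1.67. The smallest ratios among them were those of Plppr1 at E16.5 (0.72) and Edil3 at P5 (0.65).

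The 10 genes with the lowest ratio held markers of LRP neurons, ribosomal protein genes and small cytosolic proteins. Nos1, the neuronal nitric oxide synthase (chromosome 5, 117781032 to 117958840), had 44.4 CPM in high-mt and 701 CPM in low-mt cells (-3.95, -4.21 to -3.75). Pcp4, a calmodulin-binding peptide, had the same log2 ratio (-3.95), and Npy, neuropeptide Y, had 2249 and 10136 CPM (-2.17). Rpl32 of the large ribosomal subunit (chromosome 6, 115805505 to 115808747) had 246 and 1186 CPM (-2.26, -2.37 to -2.17), and Rpl35 and Rpl17 stood at -2.22 and -2.17. The other 4 were Dbpht2 (-2.41), the transcription factor gene Sp9 (-2.34), the cytoglobin gene Cygb (-2.24) and Tmsb10, a thymosin that binds actin monomers (-2.07). In all 10 the ratio was below 0 at E16.5 and P5 too, from Npy at E16.5 (-0.23) to Nos1 at P5 (-2.97). At E16.5 Nos1 had fewer than the 200 UMIs asked of a gene to enter, so its direction there rests on few counts.

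Genes of ER protein folding and translocation were mostly higher in high-mt cells. Of 31 members of this list 30 entered, 25 were at least 1.5-fold higher and 2 lower, with a median log2 ratio of 1.10, and the summed level was 9371 CPM (9273 to 9470) against 4516 CPM (4454 to 4578). Hspa5, the ER chaperone BiP (chromosome 2, 34771970 to 34777547), had 658 CPM in high-mt and 198 CPM in low-mt cells (1.73, 1.62 to 1.85). The chaperone genes Canx (1.67), Hsp90b1 (1.63) and Calr (1.43) were close to it. Hspa5 also had 625 and 208 CPM at E16.5 (1.58), and 285 and 118 CPM at P5 (1.26).

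The exceptions in this list were Sec61b and Sec61g, small subunits of the channel through which proteins enter the ER. Sec61b had 54.9 and 192 CPM (-1.79), and Sec61g, named after its values were seen, stood at -1.20. Both are anchored by their C-terminal end. Sec61a1, the large subunit of that channel, also named after its values were seen, had 295 and 115 CPM (1.35).

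The 12 genes that the study used to name its stressed clusters were higher in all cases, with a median of 1.52 and a summed level of 8195 against 2888 CPM. That list was chosen by the study on these samples, and 6 of its genes are in the list above, so its count is no independent evidence. Psap, a lysosomal protein precursor (1.71), Clu, a secreted chaperone (1.95), and App, the amyloid precursor protein (1.35), are among the rest.

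Neuronal membrane glycoproteins showed the same direction at higher levels. All 30 members entered, 27 were higher and none was lower, with a median of 1.20 and a summed level of 31138 against 14169 CPM, a 2.20-fold difference. The adhesion molecule gene Ncam1 had 4203 and 1799 CPM (1.22), and Nrxn3, a presynaptic adhesion molecule, had 2962 and 1553 CPM (0.93). Thy1 had the highest log2 ratio of the list at 1.74.

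Secretory granule and neuropeptide genes were higher member by member, but not in sum. Of 16 that entered 11 were higher and 1 lower, with a median of 1.23, whereas the summed level was 11385 against 16049 CPM (-0.50). The sum follows Npy, the only member that was lower. Cpe (1.53) and Pcsk1n (1.07), which act in peptide processing, and Cort, the cortistatin gene (1.75, named after its values were seen), were higher, and Sst itself had 3123 and 3302 CPM (-0.08).

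Ribosomal protein genes were lower almost without exception. Of 90 cytosolic members 82 entered, none was higher and 81 were lower, with a median of -1.54 and a summed level of 23557 against 68333 CPM, a 2.90-fold difference. Rps29 had 812 and 1987 CPM (-1.29), Rpl41 493 and 1509 CPM (-1.61), and Rplp1 695 and 1487 CPM (-1.10). Of 61 mitochondrial ribosomal protein genes that entered, 45 were lower and none higher, with a median of -0.97, and Mrpl30 stood at -1.75.

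Nuclear genes for other mitochondrial proteins were mostly lower or level over all P1 cells, and this turned with depth. Of 75 entered nuclear genes of oxidative phosphorylation, 42 were lower and 6 higher, with a median of -0.70. Atp5e of the ATP synthase (-1.93) and Uqcrq of complex III (-1.73) were the lowest, while the abundant Cox6c (-0.11), Cox8a (0.09) and Ndufa4 (0.21) were near 0. The 6 higher genes, named after their values were seen, were Ndufa9 (0.94), Ndufa13 (0.93), Sdha (0.71), Ndufc2 (0.69), Ndufs1 (0.68) and Cox6a1 (0.60). Of 18 genes of mitochondrial import and chaperones, 8 were lower and 2 higher, with Timm8b at -1.54 and Tomm20 at 0.65. Hspd1 (0.32) and Hspe1 (-1.31) share 112 bases on opposite strands, so their values are uncertain. Genes of mitochondrial dynamics and mitophagy split as 3 lower and 2 higher of 12, and genes that express mitochondrial DNA as 2 and 2 of 9.

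Among shallow cells, with 1000 to 2000 UMIs outside mt- (596 high-mt and 328 low-mt cells), the nuclear genes of oxidative phosphorylation lay the other way. There 12 of 35 were higher and none lower, beside 15.6% and 5.59% of the 1521 genes that entered in cells selected by that depth, and the summed level was 14394 against 10838 CPM (log2 ratio 0.41, 0.36 to 0.46). At 2000 to 4000 UMIs 41 of 71 were lower and 6 higher, beside 24.6% and 29.0% of 3929 genes, with a log2 ratio of the sums of -0.44. At 4000 to 8000 UMIs 45 of 68 were lower and 3 higher, beside 34.1% and 27.4% of 2722 genes, with -0.73. The sum over import and chaperone genes likewise had 0.30, -0.20 and -0.38 in these depth ranges.

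Of 29 actin and tubulin genes 13 were lower and 2 higher, with a median of -0.55. Tmsb4x, an actin-binding thymosin (chromosome X, 167207093 to 167209315), had 2245 and 8129 CPM (-1.86, -1.89 to -1.82), while Tuba1a stood at 0.23 and Stmn2, a tubulin-binding protein of growing neurites, at 0.52. Of 13 glycolysis genes that entered 3 were lower, among them Gapdh (-1.25), and 1, Pfkp (0.66), was higher, with a median of 0.01. Cytosolic chaperones had 6 of 17 lower and none higher. Hspa8 (0.03) and Hsp90aa1 (0.05) were level, and Dnajb1 stood at -1.47. The higher chaperones were thus those of the ER list and not those of the cytosol.

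**Figure D2:**
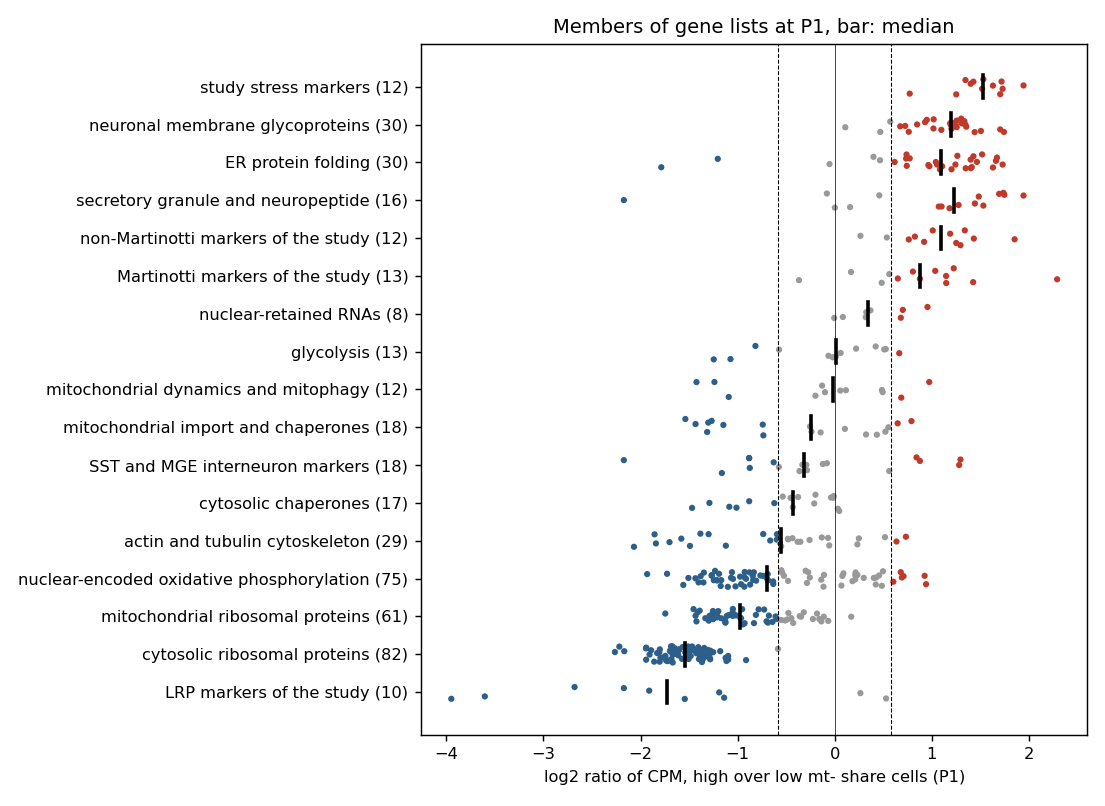
Each point is a member gene with at least 200 UMIs at P1, placed by its log2 ratio of CPM + 1 in high-mt over low-mt cells (x axis) within its gene list (rows), and the bar marks the list's median. ER folding, glycoprotein and secretory lists have medians of 1.10, 1.20 and 1.23, and the ribosomal protein lists lie left of 0, with medians of -1.54 and -0.97.

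Immediate early and apoptosis genes were not higher at P1, while the summed level of the integrated stress response was. Of 24 immediate early genes only 3 entered, of which Jun (-1.89) and Jund (-1.71) were lower and Klf6 stood at -0.28. Of 15 entered genes of apoptosis and p53 targets 4 were lower and none was higher, with Bad at -1.75, Cdkn1a at -1.65 and Bax at -0.05. Of 6 entered genes of the integrated stress response 3 were higher and 1 lower. Slc7a5 (1.62) and Slc3a2 (1.31), which form an amino acid transporter in the plasma membrane, were higher, whereas Atf4, the transcription factor of this response, had 68.9 and 125 CPM (-0.85). The sum over this list was 616 against 490 CPM (log2 ratio 0.33, 0.24 to 0.41), and the log2 ratio of the sums was 0.53, 0.39 and 0.29 in cells with 1000 to 2000, 2000 to 4000 and 4000 to 8000 UMIs outside mt-. At E16.5 the log2 ratios of the sums were 0.20 (0.09 to 0.31) for immediate early, -0.31 for apoptosis and 0.34 for integrated stress response genes. At P5 they were -0.84, -0.51 and 0.07 (-0.16 to 0.29). Of 9 immediate early genes at E16.5, 4 were higher and 1 lower, beside 35.1% and 20.2% of all genes. Within ranges of depth the log2 ratio of the immediate early sums at E16.5 was -0.19 (-0.50 to 0.12) at 1000 to 2000 UMIs. It was 0.15 (-0.04 to 0.35) at 2000 to 4000 UMIs, so both intervals included 0. Of 9 integrated stress response genes at P5, 2 were higher and 3 lower, beside 23.6% and 25.2%.

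Nuclear-retained RNAs differed little in sum over all P1 cells, and by more within ranges of depth. The list has 18 members, of which 14 are in the files and 8 entered, and 3 of these were higher and none lower, with a median of 0.35. Their summed level was 55025 CPM in high-mt and 52530 CPM in low-mt cells, a ratio of 1.05. Malat1 alone had 36647 and 36776 CPM (-0.01, -0.02 to 0.01), and Meg3 13404 and 12648 CPM (0.08). Pantr1 (0.32), Kcnq1ot1 (0.33) and Dlx6os1 (0.37) were under 1.5-fold higher. Miat (0.68), Mirg (0.70) and Snhg11 (0.96, 2813 and 1450 CPM) passed it. At 1000 to 2000 UMIs outside mt- the summed level was 50354 CPM in high-mt and 68750 CPM in low-mt cells, with none of 7 members higher and 2 lower. At 2000 to 4000 UMIs it was 56698 and 62733 CPM, with 4 of 8 higher and none lower, and at 4000 to 8000 UMIs 57156 and 47945 CPM, with 4 of 7 higher. Of all genes that entered in these ranges, in cells chosen by depth, 15.6%, 29.0% and 27.4% were higher. The shares of lower genes were 5.59%, 24.6% and 34.1%. The direction of the summed nuclear-retained RNAs thus depended on depth.

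At E16.5 these RNAs were mostly higher in high-mt cells over all depths, where the median high-mt cell had 0.351 times the UMIs outside mt- of the median low-mt cell. There 11 of 12 entered members were higher and 1 was lower, beside a background of 35.1% of 9036 genes higher and 20.2% lower (chosen by the same limits), and the summed level was 78012 against 43448 CPM. Malat1 had 55157 and 32412 CPM (0.77), Meg3 stood at 0.89, and Pantr1 at -1.05 was the member that was lower. At P5, 2 of 8 were higher and 1 lower, beside 23.6% and 25.2% of 7414 genes (chosen likewise), with Malat1 at 0.43.

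Within ranges of depth the E16.5 difference was smaller or turned. In E16.5 cells with 1000 to 2000 UMIs outside mt- the summed level was 82721 CPM on the high and 115455 CPM on the low side (log2 ratio -0.48), and none of 7 members was higher and 1 was lower, beside 6.02% and 0.669% of 299 genes in cells chosen by depth. At 2000 to 4000 UMIs it was 76978 and 65317 CPM (0.24), with 2 of 8 higher and 1 lower, beside 19.8% and 29.9% of 2289 genes in cells chosen by depth.

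Markers of the SST lineage were present on both sides at P1. Sst had 3123 CPM in high-mt and 3302 CPM in low-mt cells, Gad1, which makes GABA, 285 and 311 CPM (-0.12), and Gad2 326 and 398 CPM (-0.29). All 18 SST and medial ganglionic eminence markers entered, and 4 were higher and 6 lower, with a median of -0.31. Lhx6, the transcription factor of these interneurons, had 472 and 870 CPM (-0.88). The vesicular GABA transporter gene Slc32a1 (1.28, named after its values were seen) and the receptor gene Erbb4 (1.30), both of membrane proteins, were higher. The other 2 higher markers were among 14 whose proteins have no hydrophobic stretch, a class defined below. Of these 14, 5 were lower, beside 7.08% higher and 29.5% lower of all genes of that class.

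Markers of the SST+ cell types differed in level between the sides. The lists are the study's. Its methods draw such markers from adult neurons of another dataset and from canonical genes, whereas its marker table presents them as genes that differ among the neurons profiled. Their independence of these samples was therefore not established, and they are not taken as evidence of a direction. Of 10 LRP markers that entered 8 were lower and none higher, with a median of -1.73 and a summed level of 2968 against 12416 CPM, most of it Npy. Pou3f2 stood at -3.60 and Ptn at -1.19. Of 13 Martinotti markers 9 were higher and none lower, with a median of 0.88, among them Reln (2.29), Elfn1 (1.43) and Pcdh7 (1.15). Of 12 non-Martinotti markers 10 were higher and none lower, with a median of 1.10, among them Tac1 (1.85) and Lrp1b (1.43). The counts of these lists are set beside those of protein classes below. At least 1 UMI of Nos1 or Chodl was seen in 121 high-mt and 351 low-mt cells, and a UMI of Reln but none of Nos1 or Chodl in 735 and 305. Fewer cells of a type and less of its RNA per cell cannot be told apart in the summed levels.

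Markers of other cell types were rare on both sides of the P1 contrast. Summed over each list there were 21 UMIs in high-mt and 16 in low-mt cells for endothelial cells, 6 and 7 for microglia, 9 and 10 for mural cells and fibroblasts, 2 and 5 for erythroid cells, and 91 and 95 for cycling progenitors. The oligodendrocyte list had 94 and 231 UMIs, with Pdgfra at 0 and 12, and the list for excitatory neurons 182 and 124, with Slc17a7 at 39 and 18. Their summed levels ran from 0.538 to 49.0 CPM in high-mt and from 1.09 to 50.5 CPM in low-mt cells, and none of their members entered. Of the 9 astrocyte markers only Slc1a2 entered, with 96.4 and 33.9 CPM (1.48). The list summed to 420 UMIs in high-mt and 305 in low-mt cells (113 and 66.7 CPM), whereas its 8 markers other than Slc1a2 summed to 62 and 150 UMIs (16.7 and 32.8 CPM). Aldh1l1 was at 0 UMIs on both sides and Cldn5, the endothelial tight junction gene, likewise. Of 3 entered markers of Meis2-type and caudal ganglionic eminence cells 2 were lower, Meis2 (-0.84) and Tshz1 (-0.87). RNA that was free in the suspension could not be measured from the filtered matrices, and its part in these values was not tested.

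The ratios also differed by a feature that the mt- limits did not use, namely whether the encoded protein has a hydrophobic stretch. Proteins were sorted by a stretch within the first 30 residues, as signal peptides have, by a longer stretch elsewhere, as membrane proteins have, by such a stretch only at the C-terminal end, or by none. Of 627 genes with a hydrophobic start 474 (75.6%) were higher and 16 lower, with a median log2 ratio of 1.03. Of 1049 with a stretch elsewhere 725 (69.1%) were higher and 33 lower, with a median of 0.90. Of 5238 with none 371 (7.08%) were higher and 1546 (29.5%) lower, with a median of -0.21. The rule reads sequence only and misses some signal peptides, such as that of Psap, which it puts in the last class.

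Genes whose only stretch is at the C-terminal end lay near the last class over all P1 cells. Of 82 such genes 16 were higher and 33 lower, with a median of -0.32. In the ER folding list, 16 of 18 members with a hydrophobic start and 6 of 6 with a stretch elsewhere were higher, and the 2 with an end stretch only were the 2 lower ones. Of the Martinotti markers 3 of 3 with a hydrophobic start, 4 of 4 with a stretch elsewhere and 2 of 6 with none were higher. For the non-Martinotti markers these counts were 4 of 5, 5 of 6 and 1 of 1. Over all genes of these classes 75.6%, 69.1% and 7.08% were higher. Of the LRP markers 4 of 5, 2 of 2 and 2 of 3 were lower. The first class held 13.6% of UMIs outside mt- in high-mt and 7.77% in low-mt cells, the second 21.5% and 11.3%, and the genes with no stretch 56.9% and 72.8%.

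The classes lay closer together in shallow cells. At 1000 to 2000 UMIs outside mt-, where 15.6% of all genes that entered were higher and 5.59% lower, 80 of 221 genes with a hydrophobic start were higher and 5 lower, with a median of 0.47. Of 302 with a stretch elsewhere 90 were higher and 2 lower, with a median of 0.39, and of 947 with none 59 were higher and 74 lower, with a median of -0.14. The 14 genes with an end stretch only had a median of 0.38 there, near that of the membrane class. At 2000 to 4000 UMIs, where 29.0% of all genes that entered were higher, the count was 348 of 425 for a hydrophobic start (median 1.23). For a stretch elsewhere it was 473 of 641 (1.06), whereas the medians were -0.18 for an end stretch and -0.28 for none. At 4000 to 8000 UMIs the end-stretch class stood at -0.75 and the class with none at -0.43.

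The order of the classes was the same among genes that belong to none of the gene lists. There the medians were 1.02 for 573 genes with a hydrophobic start, 0.89 for 1001 with a stretch elsewhere, -0.23 for 73 with an end stretch and -0.18 for 4882 with none. Of the 10 genes with the highest ratio 7 had a hydrophobic start, 2 a stretch elsewhere and 1, Nme7, none. Among the 10 lowest, Npy alone had a hydrophobic start, 8 had no stretch and Dbpht2 had no class.

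Coding length also moved with the ratio, beside the protein class. In genes cut into equal parts at coding lengths of 1032 and 1986 bases, those with no stretch had a median of -0.74 in the short, -0.18 in the middle and 0.11 in the long part. Those with a hydrophobic start had 0.76, 1.11 and 1.20, and those with a stretch elsewhere 0.76, 0.93 and 0.96. The end-stretch class had -0.69 (59 genes), 0.08 (12) and 0.28 (11). Within each part the first 2 classes therefore stood above the genes with no stretch.

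**Figure D3:**
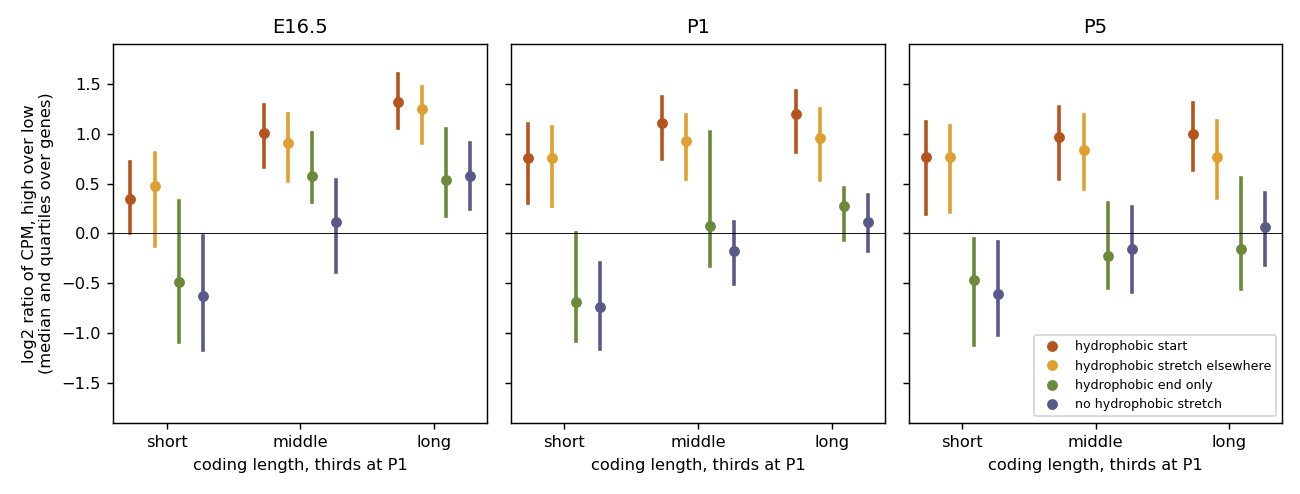
Points show the median log2 ratio of high-mt over low-mt cells (y axis) of the genes of each protein class within short, middle and long coding lengths (x axis), with bars from the lower to the upper quartile over genes, in 1 panel per library. At P1 the classes with a hydrophobic start or a stretch elsewhere have medians from 0.76 to 1.20, and the class with none from -0.74 to 0.11.

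The other libraries gave the same order of classes. At E16.5 the medians were 0.93 for a hydrophobic start, 0.91 for a stretch elsewhere, -0.00 for an end stretch and 0.10 for none, beside a median of 0.28 over all genes. At P5 they were 0.90, 0.79, -0.41 and -0.22, beside -0.01. Over 92 long non-coding RNAs that entered at P1 the median was 0.27, against -0.02 for protein-coding genes.

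The gene groups did not follow the mt- share evenly over the P1 cells. From under 2% to 6 to 8% of mt- UMIs, the summed level of ribosomal proteins went up, with 35951, 63356, 72244 and 76493 CPM in the bins of 133, 413, 737 and 813 cells. It then came down to 54200 CPM at 8 to 10% (405 cells), 25518 at 10 to 15% (825 cells) and 20298 at 15 to 20% (528 cells), with 23113 at 20 to 30% (147 cells). The bins under 8% thus had the opposite trend of those above it.

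ER folding genes mirrored that course. Their level was 6142 CPM under 2%, 4581, 4384 and 4248 CPM in the next 3 bins, and 5737, 8399, 10531 and 11607 CPM from 8% upwards. LRP markers peaked at 2 to 4%, with 20292 CPM, and had 9631 CPM at 4 to 6%, 2989 at 6 to 8% and 2321 at 20 to 30%. Nuclear-retained RNAs were highest under 2% (63500 CPM), had a low of 41911 CPM at 6 to 8%, 59061 CPM at 10 to 15% and 36542 CPM at 20 to 30%. Median UMIs outside mt- were 1379 under 2%, 4330 at 6 to 8% and 1543 at 20 to 30%, so depth moved along with these courses.

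**Figure D4:**
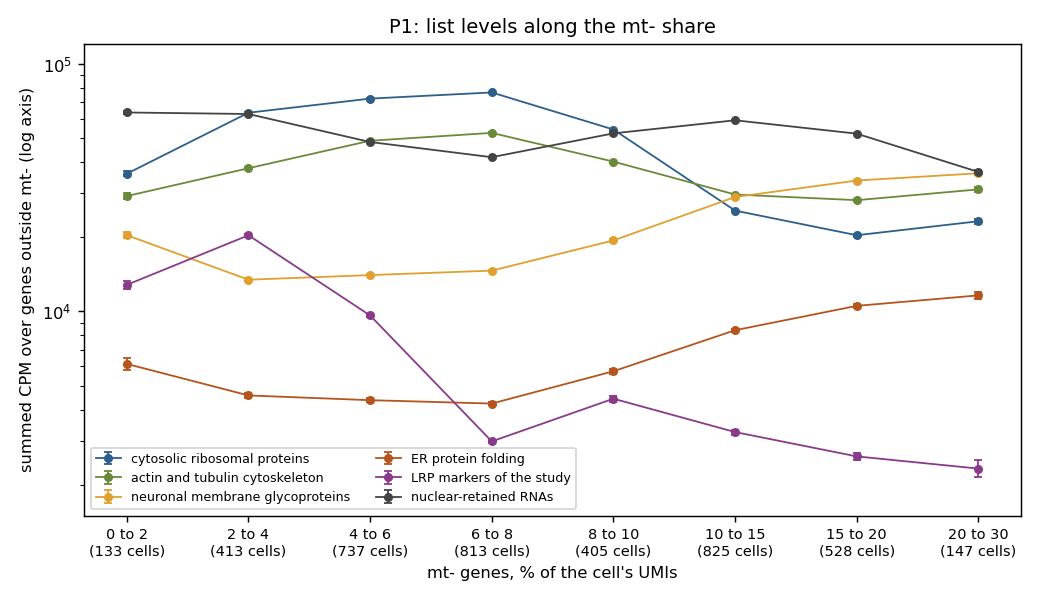
Lines show the summed CPM (log y axis) of gene lists at P1 in bins of the mt- share (%, x axis). Ribosomal proteins are highest at 6 to 8% (76493 CPM) and fall to 20298 CPM at 15 to 20%, and ER folding genes are lowest at 6 to 8% (4248 CPM) and reach 11607 CPM at 20 to 30%.

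The values just inside and outside each limit show how sharp the limits are. In cells with an mt- share of 9 to 10% ribosomal proteins had 44439 CPM and ER folding genes 6225 CPM (187 cells), and at 10 to 11% they had 36755 and 7013 CPM (187 cells). At 5 to 6% the values were 74005 and 4263 CPM (423 cells), and at 6 to 7% 77126 and 4099 CPM (445 cells). Neither limit falls on a step.

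Cells of like depth gave the contrast of ER folding genes again, and that of ribosomal genes except in the shallowest range. Among cells with 2000 to 4000 UMIs outside mt- (712 high-mt, 483 low-mt), 79 of 79 ribosomal protein genes were lower, with 22746 and 71762 CPM, and 22 of 27 ER folding genes were higher. Of all 3929 genes there, in cells chosen by depth, 29.0% were higher and 24.6% lower. At 4000 to 8000 UMIs (149 and 302 cells) 79 of 79 ribosomal genes were lower, with 21452 and 77810 CPM, and 18 of 24 ER folding genes were higher, beside 27.4% and 34.1% of 2722 genes in cells selected by depth. At 1000 to 2000 UMIs (596 and 328 cells) only 6 of 74 ribosomal genes were lower, with 26721 and 31174 CPM, and 11 of 22 ER folding genes were higher, beside 15.6% and 5.59% of 1521 genes in cells selected by depth.

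In that shallowest range the low-mt cells resembled the high-mt cells in ribosomal share. Of the 328 low-mt cells 255 (77.7%) had a share under 4%, against 51 of 483 (10.6%) at 2000 to 4000 UMIs and 4 of 302 (1.32%) at 4000 to 8000. Their median share was 2.22%, against 2.45% in high-mt cells. Median ER folding shares were 0.578% and 0.899%, and membrane glycoprotein shares 2.18% and 2.95%. Malat1 had a log2 ratio of -0.36 at 1000 to 2000 UMIs, -0.37 at 2000 to 4000 and -0.01 at 4000 to 8000, and Snhg11 had -0.69, 2.17 and 1.71.

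**Figure D5:**
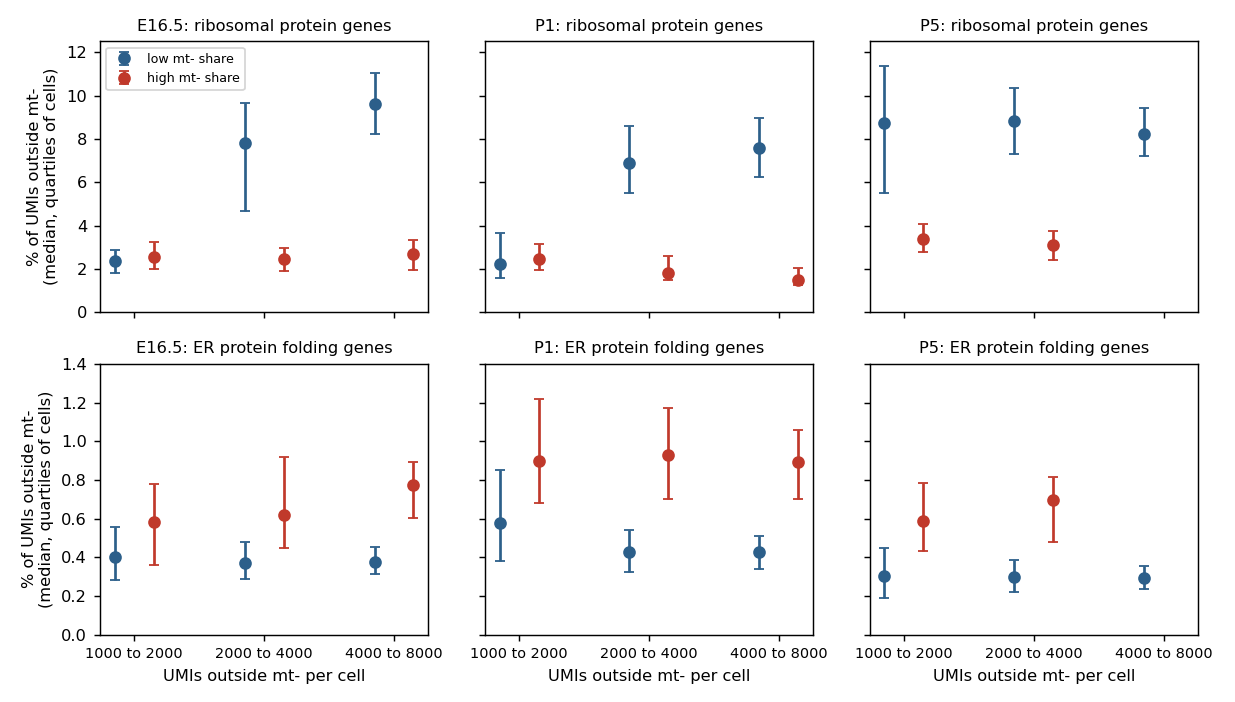
Points show the median share (%) of ribosomal protein and of ER folding transcripts among a cell's UMIs outside mt- (y axes), with bars for the quartiles over cells, for high-mt and low-mt cells within ranges of depth (x axis) in each library, leaving out groups under 20 cells. At P1 the ribosomal medians are 2.45% and 2.22% in high-mt and low-mt cells of 1000 to 2000 UMIs, and 1.83% and 6.88% in those of 2000 to 4000.

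E16.5 and P5 differed from each other in the shallow cells. At E16.5 and 1000 to 2000 UMIs (159 high-mt, 174 low-mt cells) ribosomal proteins had 27486 and 27856 CPM, and 159 of the 174 low-mt cells had a ribosomal share under 4%. At 2000 to 4000 UMIs all 79 ribosomal genes that entered were lower, beside 29.9% of all 2289 genes. At P5 and 1000 to 2000 UMIs (159 and 374 cells) the level was 35623 and 88002 CPM, and 73 of 74 genes were lower, while 2 of 3 ER folding genes were higher, beside 33.5% lower and 28.3% higher of 675 genes in cells chosen by depth. At P5 and 2000 to 4000 UMIs (30 and 785 cells) 76 of 78 ribosomal genes were lower and 9 of 14 ER folding genes higher, beside 31.9% lower and 20.6% higher of 2583 genes in cells chosen by depth. The shallow low-mt cells of P5 thus kept a high ribosomal share, and those of E16.5 and P1 did not.

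Within cells that shared a marker, the P1 contrast of ribosomal and ER genes had the same direction. In cells with a UMI of Nos1 or Chodl (121 high-mt, 351 low-mt) 77 of 77 ribosomal genes were lower and 16 of 21 ER folding genes higher, beside 25.6% higher and 36.0% lower of 1865 genes in cells chosen by these markers. In cells with a UMI of Reln and none of those (735 and 305) the counts were 79 of 79 and 24 of 27, beside 29.7% and 25.6% of 3959 genes in cells chosen by Reln. In cells with none of the 3 genes (650 and 627) they were 78 of 79 and 21 of 26, beside 23.3% and 21.0% of 3650 genes in cells chosen by their absence. A UMI of 1 gene marks a range of cells and not a type.

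Peptide and type markers behaved otherwise in the same groups of cells. Npy had a log2 ratio of -1.38 in cells with Nos1 or Chodl, 0.24 in cells with Reln and -0.89 in cells with none. Sst had -0.42, 0.80 and 0.32. The summed LRP markers had -1.35, 0.22 and -0.60. Nos1 and Chodl belong to that list and also chose these groups, so its sums were partly fixed by the choice. Hspa5 was higher in all of them, with 1.80, 1.70 and 1.62, and Lhx6 lower, with -1.04, -0.80 and -0.87.

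Gene by gene, the log2 ratios of the 3 libraries were correlated in each pair, while many genes past 1.5-fold in 1 library were not past it in another. Over 6500 genes with at least 200 UMIs in both, the log2 ratios of P1 and P5 had a Pearson r of 0.80 and a Spearman rho of 0.81, and over 6993 genes those of E16.5 and P1 had 0.81 and 0.81. Over 7051 genes E16.5 and P5 had 0.65 and 0.67. These are correlations across genes, which are not independent replicates and share base composition, length and abundance. They are over all depths, and the high-mt side was the shallower one in each library. Its median UMIs outside mt- were 0.351 (E16.5), 0.773 (P1) and 0.348 (P5) times those of the low-mt side. The part of depth in these correlations was not tested. For the postnatal pair the high-mt side was higher for 1418 genes in the P1 and for 1597 in the P5 library, with 1101 shared (77.6% of those at P1, 68.9% of those at P5) and 4 were lower at P5. Of 1582 lower at P1 and 1574 lower at P5, 1083 were lower in both (68.5% and 68.8%) and 5 were higher at P5. Of the 6993 genes of the E16.5 and P1 pair 2609 and 1529 were higher, 1238 of them in both (47.5% and 81.0%), and 18 were higher at E16.5 and lower at P1. Of the 7051 genes of the E16.5 and P5 pair 2443 and 1627 were higher, 1187 of them in both (48.6% and 73.0%), and 89 were higher at E16.5 and lower at P5.

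Over all depths, the ER folding, glycoprotein and ribosomal lists kept their direction in the other libraries. There the backgrounds were 35.1% higher and 20.2% lower at E16.5, and 23.6% and 25.2% at P5. Ribosomal protein genes were lower in 83 of 83 entered members at E16.5 (26741 and 96318 CPM) and in 80 of 82 at P5 (36447 and 83098 CPM). ER folding genes were higher in 17 of 31 at E16.5, where 4 were lower, and in 24 of 29 at P5, and membrane glycoproteins in 23 of 29 and 23 of 30. In E16.5 cells of 1000 to 2000 UMIs outside mt- the log2 ratios of the ER folding, glycoprotein and ribosomal sums were 0.49, 0.29 and -0.02. At 2000 to 4000 UMIs they were 0.81, 0.86 and -1.59. LRP markers differed by stage, with 2 higher and 2 lower of 8 at E16.5, and 1 higher and 9 lower of 12 at P5. Pou3f2 stood at 0.22 at E16.5, where Nos1 had 2.72 and 7.28 CPM (-1.15) from fewer than 200 UMIs. Nos1 at P5 had 60.1 and 478 CPM (-2.97). Microglial markers, at 6 UMIs in the high-mt cells of P1, summed to 71 UMIs in those of E16.5, and their part in the E16.5 values was not tested.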

How the data were processed

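The authors deposited filtered 10x count matrices with 1 column per cell barcode. Per the labels and the study's methods, the P1 matrix was made with version 3.0.2 of Cell Ranger and the other matrices with version 3.1.0, on GRCm38. The values are whole-number UMI counts with no normalization. Whether reads were counted by strand is not given in the sources used here. The files list 31053 genes, of which 31011 identifiers matched GENCODE vM21. The P1 cells of both sides held 4358869 and 4788037 UMIs. Between libraries 3, 1 and 6 barcodes were shared (E16.5 with P1, E16.5 with P5, P1 with P5), and no cells were dropped for this.

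Cells with over 700 genes were split by the mt- share of their UMIs (10% or more, under 6%). UMIs were summed per side, scaled to CPM over genes outside mt-, and compared as log2(CPM + 1) for genes with at least 200 UMIs over both sides, with 1.5-fold as the limit. With 1 library per stage there is no test. Ratios carry exact conditional (Clopper-Pearson) 95% intervals, levels exact Poisson and shares exact binomial ones. The members and the 31 gene lists were chosen with earlier results of these data known. Named genes are the 10 highest and 10 lowest with at least 1000 UMIs, all entered nuclear-retained RNAs, in each other list the 3 with the most UMIs and the 2 with the largest ratio, Sst, Gad1, Gad2, Lhx6 and the mt- genes. Some genes that meet this rule are not reported here.

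Protein classes come from GENCODE vM21 coding sequences translated for this work, as no table of proteins was at hand, which departs from the plan. 21459 genes have one. A start is a window of 10 residues with mean Kyte-Doolittle hydropathy of at least 2.5 within the first 30, another stretch is 19 residues with at least 1.9, and an end stretch begins within the last 40. The 2 classes beyond the start class, coding lengths, the ribosomal limit of 4%, the 4000 to 8000 range, cells without Nos1, Chodl and Reln, and the depth ranges at E16.5 and P5 were chosen after seeing the data. No doublet caller was run, and leaving out the deepest 5% of cells was tried instead. Python 3.11.15, numpy 2.4.6, scipy 1.17.1, pandas 2.3.3 and Biopython 1.88 were used, and the comparison was tested on simulated data. Counts of other settings are in the closing section.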

Additional observations from a re-analysis of the deposited data

Results flagged for a closer look

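Meis2, a transcription factor gene of cells from the caudal ganglionic eminence, had opposite directions in 2 libraries. Its log2 ratio of high-mt over low-mt cells was 1.11 at E16.5 and -0.84 at P1, where it had 71 and 160 UMIs, and the counting intervals of both lay on 1 side of 0. At P5 it was -1.01, from fewer than the 200 UMIs over both sides that a gene needed to enter. With 1 library per stage the difference was not tested.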

How the results depend on the processing

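Over 22 alternatives, 8 main results gave 138 values, of which 103 stayed near the reported one, 33 moved and 2 reversed. The 473 values of 25 list sums gave 221, 247 and 5, and the 2068 values of 110 genes 1286, 765 and 17. Genes at least 1.5-fold higher (1613 of 7124, 22.6%) were 547 of 1878 with at least 1000 UMIs and 237 of 1521 (15.6%) at 1000 to 2000 UMIs per cell. They were 746 of 2722 (27.4%) at 4000 to 8000, 477 of 1865 (25.6%) with Nos1 or Chodl and 850 of 3650 (23.3%) with none of the 3 markers. Genes lower (1657, 23.3%) were 519, 85 (5.59%), 928 (34.1%), 671 (36.0%) and 765 (21.0%) in the same order. They were 965 of 3929 (24.6%) at 2000 to 4000 UMIs, 1015 of 3959 (25.6%) in cells with Reln and 1100 of 5325 against a low side under 4%. Fewer genes entered in each of these ranges, so counts fell also where shares rose. Nuclear-retained RNAs higher (3) were 1 with mt- genes in the total, as a mean over cells, with a low side under 4% and in cells with none of the markers, and 0 at 1000 to 2000 UMIs. In that range 11 of 22 ER folding genes that entered were higher, where 25 were over all depths. There 6 ribosomal genes and 2 SST markers were lower, where 81 and 6 were over all depths. With Nos1 or Chodl 16 ER genes passed, and with at least 1000 UMIs 3 SST markers. The depth ratio (0.773) was 0.704 with a high side of 15% or more, 0.986 with a low side under 4%, 0.872 with over 400 genes, and 1.07, 0.936 and 0.922 in the depth ranges from shallow to deep. The thinned difference of 4 genes was 11.5 at 2000 UMIs, 8.5 with a low side under 4%, -1 at 1000 to 2000 UMIs, 10 at 2000 to 4000, 12 with Nos1 or Chodl and -8 with Reln. The causes of these moves were not tested.

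With mt- genes in the total, the median of all genes moved to -0.18, with 1331 higher and 2084 lower (39.0% of those past 1.5-fold higher, against 49.3%). It was -0.11 with a high side of 15% or more, -0.18 with Nos1 or Chodl and -0.13 at 4000 to 8000 UMIs, and at 1000 to 2000 UMIs 73.6% were higher. In that last range the directions reversed for the actin and tubulin sum (0.055), Atf4 (0.26), Atp5e (0.059), Cycs (0.50), Lrp1b (-0.013), Miat (-0.38), Mirg (-1.11), Mrpl20 (0.47), Mrpl33 (0.11), Pfkp (-0.98), Rplp1 (0.13), Rps29 (0.044), Snhg11 (-0.69), Tac1 (-0.90) and Tshz1 (0.053). Those are values past 1.5-fold at first. Sums under it changed sign there too, oxidative phosphorylation from -0.47 to 0.41, mitochondrial import from -0.20 to 0.30, nuclear-retained RNAs from 0.07 to -0.45, glycolysis to -0.38 and apoptosis from -0.48 to 0.069. With Nos1 or Chodl the Meis2-type sum reversed (0.37), with Reln the SST sum (0.15), the LRP sum (0.22), Npy (0.24) and Ptn (0.51), and with none of the markers the astrocyte sum (-0.38) and Ptn (0.39). The LRP list holds Nos1 and Chodl, which the cells with Reln lacked by choice, so that sum was partly fixed. Settings under 50 UMIs for a gene gave no value. No paired analysis was possible because each stage is 1 library. Depth limits cells of 1000 to 2000 UMIs most, where 1521 genes entered.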
